A study of Mus musculus with 18 samples.

Results

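Macrophages and other leukocytes are a minor share of the cells of a left ventricle, and the genes that mark them were followed here in mice lacking the microprotein NBDY. The set holds 33 listed genes, taken by symbol. It spans leukocyte surface and cytoskeletal proteins, macrophage receptors, genes of resident heart macrophages, complement C1q chains, Fc receptor adaptors, lysosomal effectors, MHC class II and immunoglobulin chains. Of these, 32 were measured among the 10597 genes of the tables, and Ptprc, the common leukocyte antigen CD45, was not analysed here.

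The hearts came from 5 male C57BL/6 knockouts of mORF4/NBDY (KO, hearts 6, 7, 8, 9 and 10), set against 4 male C57BL/6 wild types (WT, hearts 1, 2, 3 and 4), all untreated and aged 20 weeks. Each left ventricle gave a poly-A RNA library and a library of ribosome footprints, the mRNA fragments that translating ribosomes shield from nuclease, for 18 libraries in all. The sources used here do not say how the knockout allele was made. NBDY is known to bind the mRNA decapping machinery, and the design asks what its loss does to RNA levels, to ribosome occupancy and to occupancy relative to RNA, called efficiency here.

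Resident cardiac macrophages clear debris and dying cells, depend on signalling through the receptor Csf1r, and in mice are divided by markers such as Lyve1, Folr2 and Timd4 and by high MHC class II. MHC class II molecules pair an alpha with a beta chain, are chaperoned by the invariant chain Cd74, and present peptides cut by lysosomal cathepsins. C1q, which starts the classical complement pathway, is assembled from 3 different chains that macrophages secrete together.

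Reads recovered from the deposited values, summed over all 10597 genes, came to 15794158 to 20194680 in KO RNA libraries and 11172198 to 12363740 in WT RNA libraries. The KO totals rest on few low values and are less certain, but as recovered the ranges did not overlap, so RNA library depth and genotype cannot be told apart. Footprint libraries held 22911504 to 40800937 reads in KO and 6671555 to 36702120 in WT, with WT heart 2 the shallowest. Nbdy, the targeted gene, had 14.3 ± 3.46 in KO (SD, n = 5) and 183 ± 116 in WT (SD, n = 4) normalized footprint reads. Its footprint log2 fold change was -3.45 (SE 0.48, adjusted p = 0.0191 by limma), a call lost without WT heart 1, 2 or 3 (limma adjusted p = 0.0978, 0.194 and 0.116). Nbdy RNA was at -0.59 (limma adjusted p = 0.00246). All 10 cardiomyocyte markers of the list used were measured, and their RNA summed to 1762279 to 1983745 normalized reads in KO hearts and 1932764 to 2257365 in WT hearts. Of the marker lists for other blood cells, 0 of 14 T and NK cell genes, 0 of 13 B and plasma cell genes and 0 of 6 platelet genes were analysed here, and 2 of 9 neutrophil genes were. In bulk tissue, fewer cells of a type and less RNA per cell cannot be told apart.

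Promoter sequences are shown for 5 members whose RNA is compared below. C1qb and C1qc were taken because they sit side by side with unlike RNA fold changes, and Cd68 because it changed most among the macrophage receptors. H2-Aa and H2-Eb1 were taken as chains of MHC class II, the first of I-A and the second of I-E. Each run is the 250 bases before a transcript start in RefSeq (GRCm38.p6), written 5′ to 3′ on the gene's strand. For C1qc that start lies inside the gene span given further on, so the end of its window overlaps the span. Capitals mark GAGGAA or its reverse complement TTCCTC, the core letters of the sites bound by the macrophage factor PU.1, in Cd68, C1qb and C1qc. In H2-Aa and H2-Eb1 they mark CTGATTGG, the Y box letters of class II promoters. The windows are chr11:69666171-69666420 on the minus strand for Cd68, chr4:136886201-136886450 on the minus strand for C1qb, chr4:136892915-136893164 on the minus strand for C1qc, chr17:34287824-34288073 on the minus strand for H2-Aa and chr17:34305617-34305866 on the plus strand for H2-Eb1.
Cd68: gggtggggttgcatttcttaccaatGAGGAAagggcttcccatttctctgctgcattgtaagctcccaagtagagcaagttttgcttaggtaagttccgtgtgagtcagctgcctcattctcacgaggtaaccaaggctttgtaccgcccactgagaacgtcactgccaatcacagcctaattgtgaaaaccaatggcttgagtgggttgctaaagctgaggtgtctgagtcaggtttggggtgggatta
C1qb: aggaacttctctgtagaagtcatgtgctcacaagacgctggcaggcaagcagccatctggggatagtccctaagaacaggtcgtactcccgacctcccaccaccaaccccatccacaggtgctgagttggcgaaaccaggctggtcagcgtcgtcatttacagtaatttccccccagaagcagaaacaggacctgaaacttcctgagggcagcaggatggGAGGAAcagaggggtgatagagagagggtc
C1qc: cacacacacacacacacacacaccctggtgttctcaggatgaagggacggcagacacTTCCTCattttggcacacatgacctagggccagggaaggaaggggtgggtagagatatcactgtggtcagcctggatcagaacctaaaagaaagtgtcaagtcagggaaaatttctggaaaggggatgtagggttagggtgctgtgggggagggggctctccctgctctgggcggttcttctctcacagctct
H2-Aa: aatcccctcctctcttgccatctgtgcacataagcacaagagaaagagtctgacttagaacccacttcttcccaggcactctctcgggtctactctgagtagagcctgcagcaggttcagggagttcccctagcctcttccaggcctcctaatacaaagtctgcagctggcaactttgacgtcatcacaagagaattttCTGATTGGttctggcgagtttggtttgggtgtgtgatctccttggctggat
H2-Eb1: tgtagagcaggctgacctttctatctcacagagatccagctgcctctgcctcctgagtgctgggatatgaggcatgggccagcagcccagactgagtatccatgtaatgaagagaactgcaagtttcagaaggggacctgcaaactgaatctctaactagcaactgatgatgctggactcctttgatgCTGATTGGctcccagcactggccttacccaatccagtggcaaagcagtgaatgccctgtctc
On either strand, GAGGAA was found in 12 of 21 member genes with a promoter entry and in 23.4% of 32536 promoters of 250 bases. Members were counted by gene, over any of their 26 promoters, and the background by single promoter. The 2 shares are therefore of unlike units, and enrichment was not tested. GGAAGT, the core letters of ETS factor sites, was found in 10 of the 21 and in 19.8% of all promoters. TATAAA, the TATA box letters, was found in 2 of the 21 and in 12.3%. CTGATTGG was found in 2 of the 21, H2-Aa and H2-Eb1, and in 3.8% of all promoters. These matches describe the letters of the windows only.

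In RNA, members were called in both directions, among the macrophage receptors and the resident macrophage genes as well. Of 32 members 6 were higher in KO, namely Cbr2, Coro1a, C1qc, Adgre1, Ctsc and Csf1r, and 4 were lower, namely Igkc, Cd68, Ighm and Cd163 (limma, adjusted p below 0.05), while 22 did not pass. Over all 10580 genes tested in RNA, 49.4% passed, 24.3% higher and 25.1% lower, so the share of members called is no result about the set. Their median log2 fold change was 0.02, against 0.01 for all genes, and 15 of the 32 were below 0 (48.9% of all genes were). With quantile normalization the members' median was -0.02 and 17 were below 0. In footprints 0 of 32 members passed (0.02% of 9976 genes did), and in efficiency 1 was higher and 3 were lower (7.83% and 6.55% of 9974 genes). None of the 10 RNA calls was lost in any alternative that still tested the gene.

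**Figure D1:**
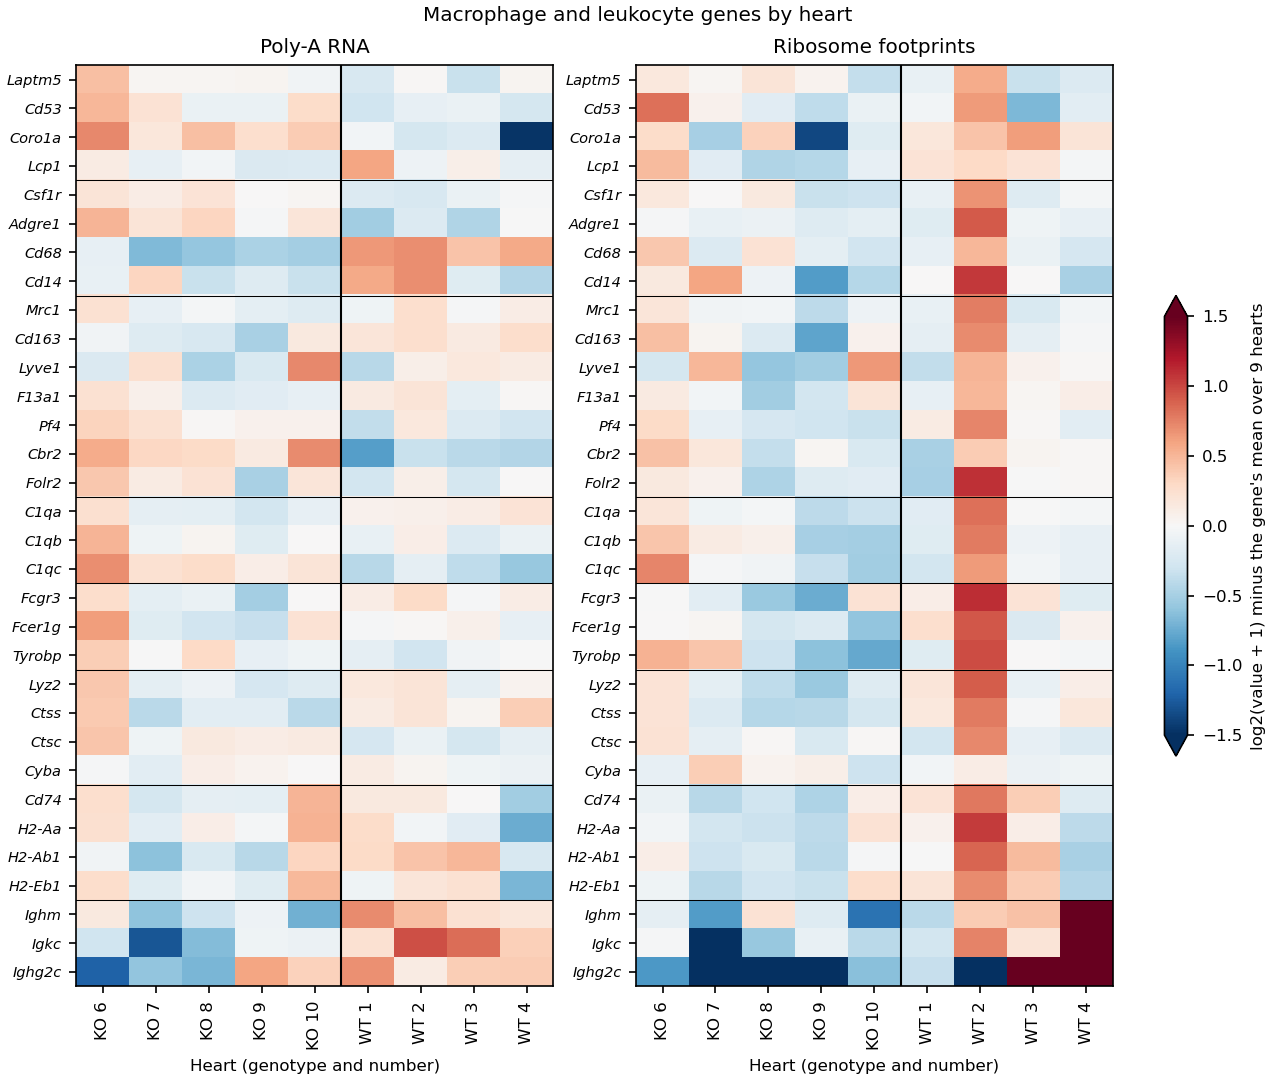
Each row is a gene and each column a heart, KO hearts on the left and WT hearts on the right of the black line, for poly-A RNA and ribosome footprints; colour is log2(normalized reads + 1) minus the gene's mean over the 9 hearts, with the scale ending at 1.5 either way. In RNA the Cd68 row is split by genotype, while in footprints the column of WT heart 2 stands out, highest of 9 hearts for 22 of 32 genes.

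**Figure D2:**
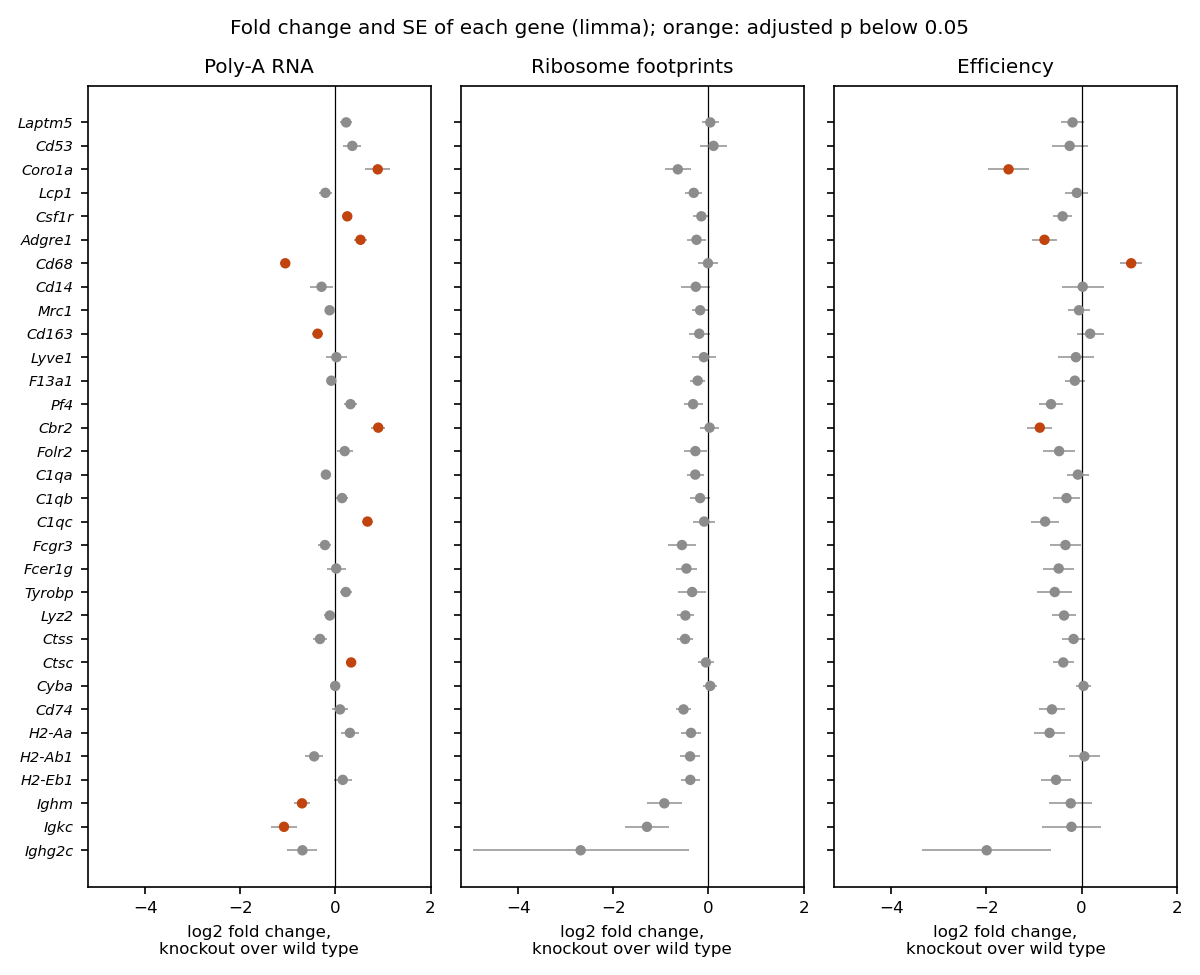
Points are log2 fold changes of KO over WT for each gene, bars their SE from limma, for RNA, footprints and efficiency; orange points have an adjusted p below 0.05. In RNA 10 of 32 genes are orange, in footprints 0, and in efficiency 4, each of them on the other side of 0 from its RNA value. Efficiency subtracts the RNA value, so opposite signs are partly built in.

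Among pan-leukocyte genes 1 of 4 changed in RNA. Coro1a, an actin-binding coronin of leukocytes (chromosome 7, 126699774 to 126704816, GRCm38.p6), had, in normalized RNA reads, 109, 74.1, 90.4, 78.7 and 85.5 in KO hearts 6 to 10, against 64.0, 54.3, 57.0 and 23.0 in WT hearts 1 to 4. All KO hearts lay above all WT hearts, WT heart 4 far below the rest, and the log2 fold change was 0.89 (SE 0.26, adjusted p = 0.0145 by limma). Without WT heart 4 it was 0.56. Footprints of Coro1a were 606, 357, 636, 193 and 443 in KO hearts 6 to 10, against 567, 676, 779 and 575 in WT hearts 1 to 4, with KO heart 9 lowest and the genotypes overlapping, at a log2 fold change of -0.64 (SE 0.28, adjusted p = 0.851 by limma, not passed). Lcp1, the actin bundler L-plastin, had, in normalized RNA reads, 300.1, 253, 268, 238 and 239 in KO hearts 6 to 10, against 416, 262, 294 and 252 in WT hearts 1 to 4. Its normalized footprint reads were 1153, 740.1, 607, 617 and 765 in KO hearts 6 to 10, against 956, 1025, 959 and 815 in WT hearts 1 to 4. WT heart 1 was highest in RNA and KO heart 6 in footprints, and the groups overlapped in both. The tetraspanin Cd53 and the lysosomal membrane protein Laptm5 were at 0.36 and 0.23 in RNA and at 0.11 and 0.04 in footprints, all on the log2 scale and none past the test.

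The macrophage receptors moved apart from each other in RNA: 2 rose, 1 fell and 1 did not pass. Cd68, macrosialin of late endosomes and lysosomes (chromosome 11, 69664213 to 69666170, GRCm38.p6), had, in normalized RNA reads, 286, 198, 209, 224 and 219.5 in KO hearts 6 to 10, against 490.0, 507, 419 and 465 in WT hearts 1 to 4. Every KO heart lay below every WT heart, and the means were 227 ± 34.2 in KO (SD, n = 5) and 470.3 ± 38.1 in WT (SD, n = 4). Cd68 RNA had a log2 fold change of -1.05 (SE 0.11, adjusted p = 1.16e-05 by limma), and leaving out any heart kept it between -1.14 and -1.01. Cd68 footprints did not follow: they were 616, 403, 542, 421 and 380.0 in KO hearts 6 to 10, against 426, 656, 436 and 392 in WT hearts 1 to 4. KO heart 6 and WT heart 2 were both high, the genotypes overlapped, and the log2 fold change was -0.01 (SE 0.20, adjusted p = 0.994 by limma, not passed). Eif4a1, a translation initiation factor gene 766 bases away, was at 0.49 (limma adjusted p = 3.89e-05) in RNA, the other way from Cd68. The RNA kit named in the labels does not mark strand, so reads of overlapping or antisense transcripts cannot be told apart.

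Adgre1, the adhesion receptor F4/80 that defines mouse macrophages in flow cytometry (chromosome 17, 57358581 to 57483529, GRCm38.p6), went up in RNA. It had, in normalized RNA reads, 222, 178, 195, 153 and 176 in KO hearts 6 to 10, against 109, 134, 114 and 156 in WT hearts 1 to 4, KO heart 9 lying just below WT heart 4, for a log2 fold change of 0.53 (SE 0.13, adjusted p = 0.00627 by limma). Its footprints were 1007, 943, 959, 892 and 923 in KO hearts 6 to 10, against 903, 1926, 978 and 939 in WT hearts 1 to 4. The 5 KO hearts were close together and WT heart 2 was far above every other heart, and the log2 fold change was -0.25 (SE 0.19, adjusted p = 0.854 by limma, not passed). Csf1r, the receptor for the macrophage growth factors CSF1 and IL34, had, in normalized RNA reads, 816, 772, 822, 715 and 723 in KO hearts 6 to 10, against 618, 603, 665 and 703 in WT hearts 1 to 4. KO hearts all exceeded WT hearts by a small margin, with a log2 fold change of 0.25 (SE 0.07, adjusted p = 0.00982 by limma). Csf1r footprints were 3902, 3523, 3869.9, 2780.0 and 2832 in KO hearts 6 to 10, against 3241, 5584, 3062 and 3419.6 in WT hearts 1 to 4, again highest in WT heart 2, with a log2 fold change of -0.15 (SE 0.17, adjusted p = 0.884 by limma, not passed). Cd14, a co-receptor for bacterial lipopolysaccharide, averaged 77.1 ± 15.9 in KO (SD, n = 5) and 98.5 ± 36.9 in WT (SD, n = 4) in RNA and 371 ± 139 in KO (SD, n = 5) and 458 ± 232 in WT (SD, n = 4) in footprints, and passed in neither.

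**Figure D3:**
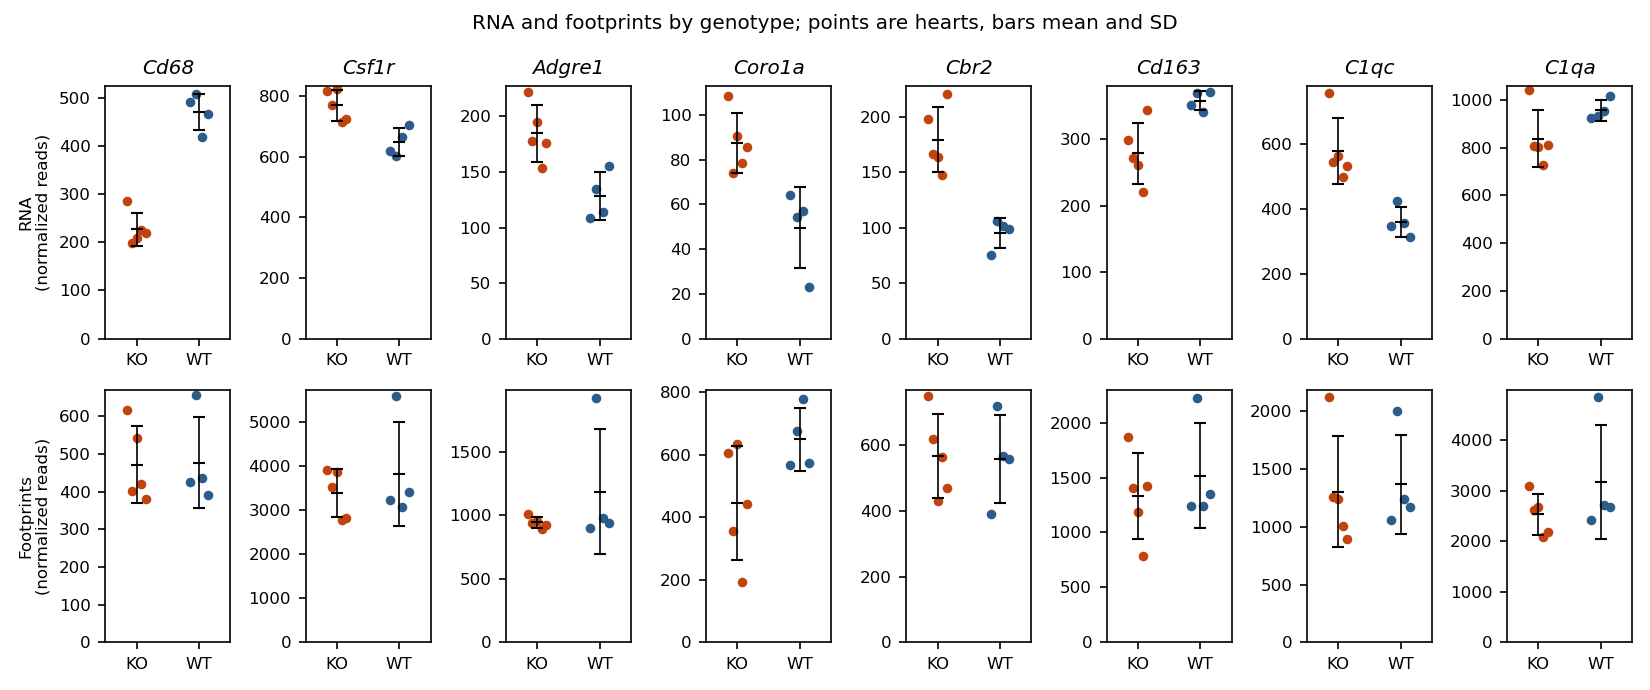
RNA (top) and footprint (bottom) normalized reads of 8 genes, KO left of WT; points are hearts, and bars give the mean and SD. Cd68 RNA is lower in every KO heart while its footprints overlap, Cbr2, Coro1a and C1qc RNA are higher in every KO heart, and WT heart 2 is the high WT point in most footprint panels.

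Of 7 genes typical of resident heart macrophages, Cbr2 rose and Cd163 fell in RNA. Cbr2, a carbonyl reductase (chromosome 11, 120729485 to 120732025, GRCm38.p6), had, in normalized RNA reads, 198, 166, 164, 147 and 220.4 in KO hearts 6 to 10, against 75.2, 106, 101 and 98.8 in WT hearts 1 to 4. Every KO heart was above every WT heart, WT heart 1 was lowest, and the log2 fold change was 0.90 (SE 0.14, adjusted p = 0.000295 by limma). Its footprints were 749.7, 617, 428, 564 and 469 in KO hearts 6 to 10, against 392, 718, 567 and 556 in WT hearts 1 to 4, overlapping, at 0.02 (SE 0.20, adjusted p = 0.988 by limma, not passed). Dcxr, a related reductase gene 2201 bases away, was at 0.58 (limma adjusted p = 0.00150) in RNA as well, and its efficiency was at -0.67 (limma adjusted p = 0.0425). Cd163, the scavenger receptor for haemoglobin bound to haptoglobin (chromosome 6, 124304636 to 124330529, GRCm38.p6), had, in normalized RNA reads, 299, 271, 261, 220.2 and 344 in KO hearts 6 to 10, against 352, 369, 341 and 371 in WT hearts 1 to 4. KO heart 10 alone reached into the WT range, and the log2 fold change was -0.37 (SE 0.11, adjusted p = 0.0151 by limma). Cd163 footprints were 1865, 1403, 1183, 789.8 and 1423 in KO hearts 6 to 10, against 1244, 2226, 1243 and 1348 in WT hearts 1 to 4, overlapping between genotypes, at -0.19 (SE 0.22, adjusted p = 0.886 by limma, not passed).

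F13a1, the A subunit of coagulation factor XIII, had, in normalized RNA reads, 741, 668, 549, 563 and 580.3 in KO hearts 6 to 10, against 693, 724, 569.7 and 639.9 in WT hearts 1 to 4. Its footprints were 3615, 3201, 2295, 2732 and 3779.5 in KO hearts 6 to 10, against 3027, 4666, 3353 and 3536 in WT hearts 1 to 4, with WT heart 2 highest and KO heart 8 lowest. The genotypes overlapped in both assays. Mrc1, the mannose receptor CD206, averaged 586 ± 72.4 in KO (SD, n = 5) and 636 ± 62.7 in WT (SD, n = 4) in RNA. Lyve1, a hyaluronan receptor shared with lymphatic endothelium, averaged 155 ± 55.3 in KO (SD, n = 5) and 148 ± 25.3 in WT (SD, n = 4). KO heart 10 was the highest for Lyve1 in both assays. Pf4 (the chemokine CXCL4), Folr2 (folate receptor beta), Mrc1, Lyve1 and F13a1 had RNA log2 fold changes of 0.32, 0.20, -0.12, 0.02 and -0.09, of which none passed. Pf4 passed without WT heart 2 (0.43, limma adjusted p = 0.0134) and Folr2 without KO heart 9 (0.34, limma adjusted p = 0.0370).

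The 3 chains of C1q, whose genes lie next to each other on chromosome 4, differed in RNA. C1qc (136889801 to 136892936, GRCm38.p6) had, in normalized RNA reads, 758, 545, 565, 498 and 533 in KO hearts 6 to 10, against 348, 424, 358 and 314 in WT hearts 1 to 4. All KO hearts exceeded all WT hearts, KO heart 6 by the most, with a log2 fold change of 0.67 (SE 0.12, adjusted p = 0.000761 by limma). C1qa (136895916 to 136898844) had 1042, 809, 801, 728 and 811 in KO hearts 6 to 10, against 923, 931, 953 and 1017 in WT hearts 1 to 4, with a log2 fold change of -0.20 (SE 0.09, adjusted p = 0.0861 by limma, not passed). Apart from KO heart 6, KO hearts lay below the WT hearts, and without heart 6 C1qa was lower at -0.28 (limma adjusted p = 0.00319). C1qb (136880126 to 136886200) averaged 621 ± 122 in KO (SD, n = 5) and 557 ± 51.0 in WT (SD, n = 4), at 0.14 (SE 0.12, adjusted p = 0.359 by limma, not passed). In footprints the log2 fold changes were -0.28, -0.18 and -0.09 for C1qa, C1qb and C1qc, with none past the test. C1qc footprints were 2119.7, 1259, 1236, 1009.9 and 891 in KO hearts 6 to 10, against 1057, 1998, 1243 and 1171 in WT hearts 1 to 4, and C1qa footprints 3095, 2622, 2682, 2089 and 2188 in KO hearts 6 to 10, against 2428, 4853, 2721 and 2671 in WT hearts 1 to 4. KO heart 6 and WT heart 2 were the high hearts of each genotype for both chains.

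Within each heart the chains could be set against each other, which cancels what the chains share in a heart but not the length of the transcripts, so the ratios describe shifts and not stoichiometry. These pairs were chosen after their values were seen and carry no test. The RNA ratio of C1qc to C1qa was 0.728, 0.674, 0.705, 0.685 and 0.657 in KO hearts 6 to 10, against 0.377, 0.455, 0.376 and 0.309 in WT hearts 1 to 4. It lay between 0.657 and 0.728 in KO hearts and between 0.309 and 0.455 in WT hearts, with no overlap. The same ratio in footprints was 0.685, 0.480, 0.461, 0.483 and 0.407 in KO hearts 6 to 10, against 0.435, 0.412, 0.457 and 0.438 in WT hearts 1 to 4. There KO heart 6 was far above the others, KO hearts 7, 8 and 9 were slightly above every WT heart, and KO heart 10 was lowest of all. Of 6 pairs formed among the C1q chains and among the class II chains, 5 did not overlap between genotypes in RNA and 0 of 6 in footprints. In RNA 40.5% of single genes do not overlap either, and in footprints 1.6%. A share over other gene pairs was not computed, so these counts have no background of their own kind. Pairs within C1q or within class II share their chains and are not independent of each other.

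**Figure D4:**
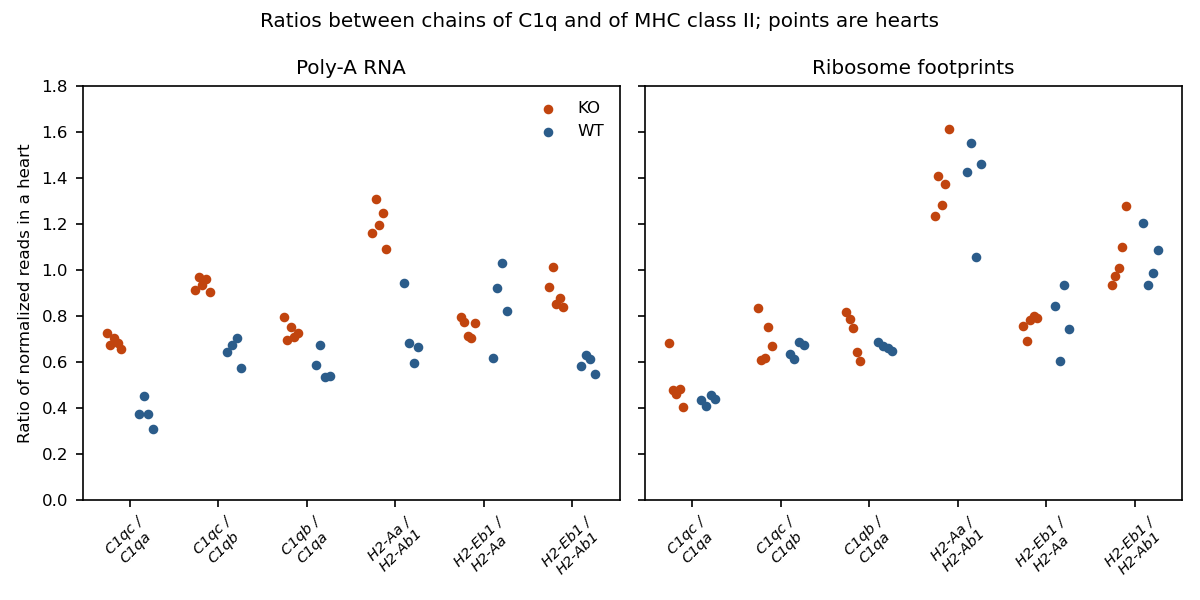
Ratios of normalized reads between chains of C1q and of MHC class II within each heart, KO left of WT in each pair, for RNA and footprints; points are hearts. In RNA the genotypes are apart for every pair but H2-Eb1 over H2-Aa, and in footprints they overlap for all 6 pairs.

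Of 3 Fc receptor and adaptor genes 0 passed in RNA, in footprints or in efficiency. Fcgr3, a low-affinity receptor for IgG, had, in normalized RNA reads, 236, 177, 182, 137 and 196 in KO hearts 6 to 10, against 212, 239, 194 and 211 in WT hearts 1 to 4. Its normalized footprint reads were 197, 177, 133, 117 and 229 in KO hearts 6 to 10, against 212, 425, 227 and 173 in WT hearts 1 to 4. KO heart 9 was lowest in both assays and WT heart 2 highest. Fcer1g, the signalling gamma chain, averaged 58.5 ± 18.3 in KO (SD, n = 5) and 55.9 ± 3.40 in WT (SD, n = 4) in RNA and 304 ± 50.1 in KO (SD, n = 5) and 434 ± 159.7 in WT (SD, n = 4) in footprints. Tyrobp, the adaptor DAP12 for activating receptors, averaged 121 ± 19.2 in KO (SD, n = 5) and 103 ± 8.75 in WT (SD, n = 4) in RNA and 383 ± 157 in KO (SD, n = 5) and 480.4 ± 203 in WT (SD, n = 4) in footprints. Footprint log2 fold changes were -0.56, -0.46 and -0.34 for Fcgr3, Fcer1g and Tyrobp, with limma adjusted p of 0.851, 0.851 and 0.854.

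Of 4 lysosomal and phagosomal effectors, Ctsc rose in RNA. Ctsc, the dipeptidyl peptidase that activates granule proteases (chromosome 7, 88278024 to 88315861, GRCm38.p6), had, in normalized RNA reads, 635, 455, 527, 513 and 521 in KO hearts 6 to 10, against 401, 444, 398 and 434 in WT hearts 1 to 4, KO above WT in every heart. Its log2 fold change was 0.33 (SE 0.09, adjusted p = 0.00877 by limma), and its footprints, 2699.9, 2109.7, 2335, 1969 and 2341 in KO hearts 6 to 10, against 1909, 3817, 2129 and 2012 in WT hearts 1 to 4, overlapped with a high WT heart 2, at -0.05 (SE 0.18, adjusted p = 0.963 by limma, not passed). Lyz2, lysozyme of macrophages and neutrophils, had, in normalized RNA reads, 1009.5, 691, 726, 642 and 665 in KO hearts 6 to 10, against 850.5, 875, 693 and 789 in WT hearts 1 to 4. Its normalized footprint reads were 6203, 4863, 4135, 3652 and 4711 in KO hearts 6 to 10, against 6102, 10092, 4980.1 and 5787 in WT hearts 1 to 4. Its near-identical neighbour Lyz1 lies 5523 bases away, so the split of reads between them is uncertain, and Lyz1 RNA was at -0.38 (limma adjusted p = 0.0309). Ctss, the cathepsin that trims the invariant chain, averaged 238 ± 58.9 in KO (SD, n = 5) and 292 ± 28.6 in WT (SD, n = 4) in RNA and 1176 ± 226 in KO (SD, n = 5) and 1670.5 ± 441 in WT (SD, n = 4) in footprints. KO heart 6 was the high KO heart for Lyz2 and Ctss RNA, and without it both were lower in KO (-0.23 and -0.46, limma adjusted p = 0.0348 and 0.00346). Cyba, the membrane subunit of the phagocyte NADPH oxidase that other cells make too, averaged 327 ± 21.3 in KO (SD, n = 5) and 328 ± 22.6 in WT (SD, n = 4) in RNA, at -0.00 (SE 0.08, adjusted p = 0.964 by limma, not passed).

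MHC class II genes did not pass in RNA or footprints. Cd74 had, in normalized RNA reads, 1009, 709, 772, 769 and 1210.0 in KO hearts 6 to 10, against 944, 939, 855 and 591 in WT hearts 1 to 4, KO heart 10 highest and WT heart 4 lowest. Its footprints were 10551, 8457, 9159, 8148 and 12114 in KO hearts 6 to 10, against 12982, 19459, 14501 and 9857 in WT hearts 1 to 4, WT heart 2 highest and KO heart 9 lowest, with a log2 fold change of -0.52 (SE 0.17, adjusted p = 0.851 by limma, not passed) and an unadjusted p of 0.00594. KO heart 10 and WT heart 4 were also the extremes for RNA of H2-Aa and H2-Eb1. H2-Aa, the alpha chain of I-A, averaged 440.3 ± 82.3 in KO (SD, n = 5) and 363 ± 101 in WT (SD, n = 4) in RNA. H2-Ab1, its beta chain, averaged 372 ± 96.3 in KO (SD, n = 5) and 503 ± 106 in WT (SD, n = 4), at -0.45 (SE 0.19, adjusted p = 0.0692 by limma, not passed). The H2-Ab1 difference passed without KO heart 10 (-0.58, limma adjusted p = 0.0152), without WT heart 4 (-0.61, limma adjusted p = 0.0160) and in the authors' deposited table (-0.40, adjusted p = 0.0410). H2-Eb1, the beta chain of I-E, averaged 332 ± 71.0 in KO (SD, n = 5) and 302 ± 77.9 in WT (SD, n = 4) in RNA. The ratio of H2-Aa to H2-Ab1 RNA was 1.16, 1.31, 1.20, 1.25 and 1.09 in KO hearts 6 to 10, against 0.943, 0.683, 0.597 and 0.667 in WT hearts 1 to 4, without overlap, while in footprints it averaged 1.38 ± 0.145 in KO and 1.37 ± 0.218 in WT (SD, n = 5 and 4). Class II footprints had log2 fold changes of -0.52, -0.37, -0.39 and -0.38 for Cd74, H2-Aa, H2-Ab1 and H2-Eb1.

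Immunoglobulin chains, made by B and plasma cells, were lower in KO RNA for 2 of 3, where 25.1% of all genes were lower. Igkc, the kappa light chain constant region (chromosome 6, 70726435 to 70726754, GRCm38.p6), had, in normalized RNA reads, 28.7, 14.0, 22.2, 33.9 and 33.3 in KO hearts 6 to 10, against 41.8, 70.6, 64.6 and 46.0 in WT hearts 1 to 4. No KO heart reached the lowest WT heart, and the log2 fold change was -1.08 (SE 0.28, adjusted p = 0.00675 by limma). Ighm, the mu heavy chain (chromosome 12, 113418826 to 113422730, GRCm38.p6), had, in normalized RNA reads, 227, 135, 165, 194 and 124 in KO hearts 6 to 10, against 334, 279.8, 241 and 231 in WT hearts 1 to 4, again without overlap, with a log2 fold change of -0.70 (SE 0.18, adjusted p = 0.00594 by limma). In footprints WT heart 4 stood apart. Igkc footprints were 124, 35.6, 84.3, 116 and 94.4 in KO hearts 6 to 10, against 103, 211, 143 and 579.5 in WT hearts 1 to 4, and Ighm footprints 169, 104, 215, 162 and 85.3 in KO hearts 6 to 10, against 139, 242, 252 and 586 in WT hearts 1 to 4. Both ranges overlapped between genotypes, and the log2 fold changes, -1.29 and -0.93, did not pass (limma adjusted p = 0.851 for each).

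Ighg2c, the gamma heavy chain of the C57BL/6 IgG2c subclass (chromosome 12, 113287389 to 113288932, GRCm38.p6), was read in RNA of every heart and hardly at all in footprints outside WT heart 4. Its RNA was 68.6, 106, 99.6, 242 and 204 in KO hearts 6 to 10, against 258, 174, 206 and 208 in WT hearts 1 to 4 normalized reads, KO hearts 6, 7 and 8 lowest, at -0.69 (SE 0.32, adjusted p = 0.0881 by limma, not passed). It was called lower without KO heart 9 (-0.92, limma adjusted p = 0.0176) and without KO heart 10 (-0.86, limma adjusted p = 0.0414). Whole footprint reads numbered 1, 0, 0, 0 and 1 in KO hearts 6 to 10, against 2, 0, 9 and 156 in WT hearts 1 to 4. WT heart 4 therefore held nearly all of them, or 118 normalized reads. DESeq2 on the whole footprint reads called Ighg2c lower (adjusted p = 0.0187), among 0.0401% of genes called lower. The authors' deposited table did so as well (adjusted p = 0.0205), with 0.0388% of genes lower, while limma and edgeR did not. In efficiency the authors' deposited table also has Ighg2c lower, at -6.16 once turned round to KO over WT (adjusted p = 0.00321), where limma made no call. Reads of immunoglobulin constant regions can be shared between similar genes, so these values are uncertain. With 0 of 13 B and plasma cell markers analysed here, the part of such cells in these differences was not tested.

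Footprint means leaned the same way across the set without any member passing. In 28 of 32 members the log2 fold change was below 0, with a median of -0.28. Over all genes tested, 50.5% were below 0 and the median was -0.003. At an unadjusted p below 0.05 there were 6 members, namely Cd74, Ctss, Igkc, Lyz2, Ighm and Coro1a, against 5.06% of all genes. The edgeR quasi-likelihood test on whole reads called 2 genes (0.02%), 0 of them members. In footprints 0 of 32 members separated the genotypes, against 1.6% of all genes.

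The lean was smaller without WT heart 2. WT heart 2 had the highest footprints of the 9 hearts for 22 of 32 members and for 22.6% of all genes. Without it 17 of 32 members were below 0, with a median of -0.07, against 51.5% of all genes. The members apart from immunoglobulins averaged 0.72 above their 9-heart mean in WT heart 2 footprints on the log2 scale, and 0.21 above in KO heart 6. Fibroblast markers moved with them there, 0.67 in WT heart 2 and 0.42 in KO heart 6 over 9 genes, as did endothelial markers at 0.30 in WT heart 2 over 10 genes. Erythrocyte markers were higher still in WT heart 2, at 0.91 over 5 genes, as was the single mast cell gene Mcpt4, at 2.17. Neutrophil and dendritic cell genes were at -0.05 and -0.25. Cardiomyocyte markers were at -0.15 in WT heart 2 and smooth muscle markers at 0.00. WT heart 2 was also the shallowest footprint library, at 6671555 reads, and the part of depth in its high values was not tested. In RNA the same heart was at 0.08 for the 29 members, and KO heart 6 was the highest at 0.29, with fibroblast markers at 0.48. KO heart 6 had the highest RNA of 9 hearts for 15 of 32 members, against 11.5% of all genes.

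Efficiency, the footprint value relative to RNA, changed for 4 members, and all 4 had changed the other way in RNA. Since efficiency subtracts the RNA value and no member passed in footprints, this opposition is partly built in and is no separate result. Cd68 efficiency, as footprint over RNA reads of a heart, both normalized, was 2.16, 2.04, 2.59, 1.87 and 1.73 in KO hearts 6 to 10, against 0.869, 1.29, 1.04 and 0.842 in WT hearts 1 to 4. Every KO heart exceeded every WT heart, and the log2 difference was 1.04 (SE 0.23, adjusted p = 0.00523 by limma), kept in every alternative run. Coro1a efficiency was 5.58, 4.81, 7.03, 2.46 and 5.18 in KO hearts 6 to 10, against 8.85, 12.4, 13.7 and 25.0 in WT hearts 1 to 4, without overlap, at -1.53 (SE 0.43, adjusted p = 0.0224 by limma). That call was lost without WT heart 3 or 4 (limma adjusted p = 0.0534 and 0.0571). Cbr2 efficiency was 3.80, 3.71, 2.61, 3.82 and 2.13 in KO hearts 6 to 10, against 5.21, 6.78, 5.60 and 5.63 in WT hearts 1 to 4, again without overlap, at -0.88 (SE 0.26, adjusted p = 0.0314 by limma). It was lost without KO heart 8 or 10 or WT heart 2, 3 or 4 (limma adjusted p of 0.0634 to 0.0921) and with quantile normalization (limma adjusted p = 0.0515). Adgre1 efficiency was 4.54, 5.31, 4.93, 5.83 and 5.24 in KO hearts 6 to 10, against 8.31, 14.3, 8.58 and 6.04 in WT hearts 1 to 4, with KO heart 9 at 5.83 just under WT heart 4 at 6.04. Its log2 difference was -0.78 (SE 0.26, adjusted p = 0.0466 by limma), and the call was lost without any heart other than WT heart 4 (highest limma adjusted p = 0.0908), with no filter on low values and with quantile normalization (limma adjusted p = 0.0504 and 0.0659).

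The authors' deposited table gives these 4 genes, and no other member, the tag buffered, which 15.2% of the 10597 genes carry. Ighg2c has the tag exclusive, as 2 genes do in all, and the other 27 members are tagged unchanged. All 4 efficiency calls draw on the RNA libraries, whose recovered depth ranges do not overlap between genotypes.

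Both libraries of a heart come from the same ventricle, and with the heart as a replicate block more members passed. Higher efficiency was then called for Cd68 (9.92% of all genes were) and lower efficiency for 8 of 32 members, against 8.65% of all genes, the added ones being Cd74, C1qc, H2-Eb1, H2-Aa and Pf4 (limma adjusted p = 0.00254, 0.00601, 0.00692, 0.0293 and 0.0336). Cd74 efficiency was 10.5, 11.9, 11.9, 10.6 and 10.0 in KO hearts 6 to 10, against 13.8, 20.7, 17.0 and 16.7 in WT hearts 1 to 4, KO below WT in every heart, and H2-Eb1 efficiency 6.26, 6.67, 6.62, 7.07 and 6.74 in KO hearts 6 to 10, against 9.46, 11.3, 8.79 and 9.33 in WT hearts 1 to 4, also apart. C1qc efficiency was 2.79, 2.31, 2.19, 2.03 and 1.67 in KO hearts 6 to 10, against 3.04, 4.71, 3.47 and 3.73 in WT hearts 1 to 4. In the fit without the block these genes had log2 differences of -0.62 for Cd74, -0.54 for H2-Eb1 and -0.77 for C1qc and did not pass (limma adjusted p = 0.133, 0.272 and 0.0936). KO hearts were all below WT hearts in efficiency for 8 members and all above for 1, against 8.73% and 9.55% of genes. With the per-heart ratio tested, 7 were lower, all of these but H2-Aa, against 7.04% of all genes. Over the 32 members, 27 log2 differences were below 0, with a median of -0.33. Of all genes 52% were below 0, with a median of -0.02. Without WT heart 2 the members' median was -0.18 and 24 were below 0.

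Relative to other genes, most members carried many footprints for their RNA in both genotypes. The ratio of mean footprints to mean RNA had a median of 4.59 in KO and 5.71 in WT over the 32 members, against 1.49 in KO and 1.44 in WT over 9974 genes. It was above the 90th percentile of all genes for 22 members in KO and 23 in WT, where 10.0% of genes lie. Since each assay has its own scaling, the ratio places genes against each other and is not ribosomes per transcript. Cd74 was highest, at 10.8 in KO and 17.1 in WT. Next in KO were Cd53, Mrc1 and Laptm5, at 8.77, 7.15 and 7.15 in KO and 10.7, 7.68 and 8.35 in WT. In WT the next were Coro1a and H2-Aa, at 13.1 and 10.9 in WT and 5.11 and 6.55 in KO, and then Cd53. Below the all-gene median in both genotypes were Fcgr3 (0.918 in KO, 1.21 in WT), Ighm (0.871 in KO, 1.12 in WT) and Ighg2c, and Cd68 was above it in KO (2.08) and below it in WT (1.01). Fibroblast markers had medians of 4.23 in KO and 4.89 in WT, cardiomyocyte markers 1.83 in KO and 1.54 in WT, and endothelial markers 1.31 in KO and 1.40 in WT.

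**Figure D5:**
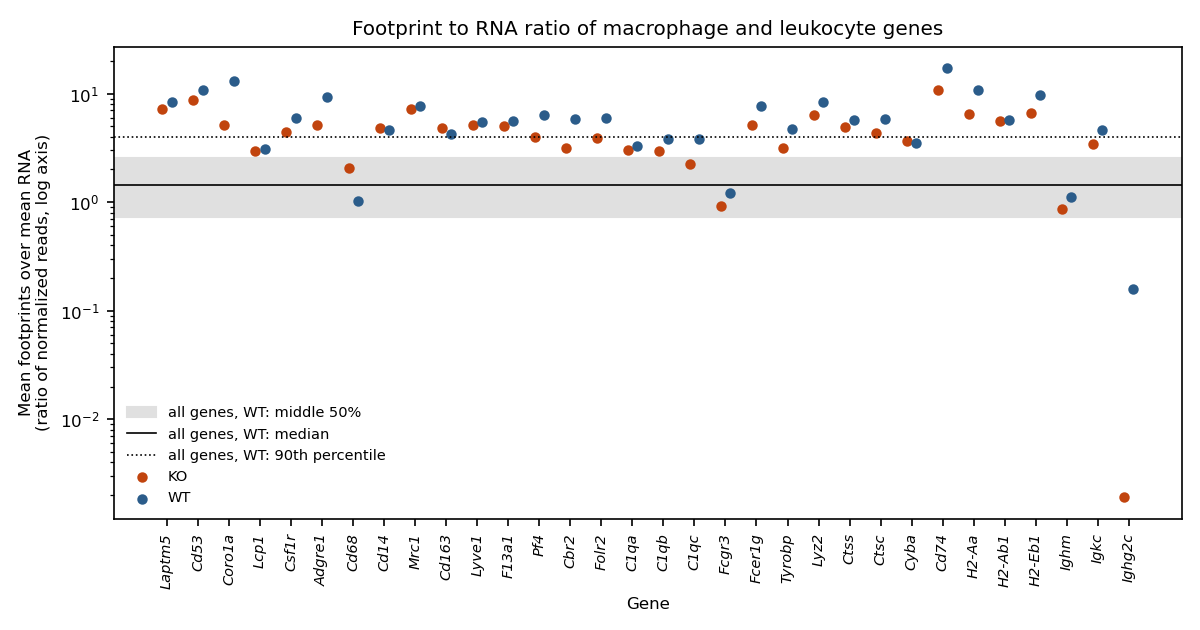
Ratio of mean footprint to mean RNA reads for each member, KO left of WT, on a log axis; the grey band and the lines show the middle 50%, the median and the 90th percentile of all genes in WT. Most members lie above the dotted 90th percentile, Cd68 lies above the all-gene median in KO and below it in WT, and Ighg2c is far below.

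Other genes of the same pathways, from lists made for this purpose, also went both ways in RNA. Of 23 other macrophage and monocyte genes 4 rose and 5 fell, where 49.4% of all genes passed. Values for these lists are log2 fold changes of KO over WT. Dab2, an endocytic adaptor also made by endothelium, was at -1.03 (limma adjusted p = 8.42e-06), Timd4, a receptor for dying cells on resident macrophages, at -1.25 (limma adjusted p = 0.000129), and the monocyte antigen gene Ly6c2 at -0.56 (limma adjusted p = 0.000159). Ly6c2 has close paralogs, so its value is uncertain. Among the 4 that rose, Stab1, a scavenger receptor, was at 0.57 (limma adjusted p = 0.0005). In footprints 0 of 22 passed and 17 were below 0, where 50.5% of all genes were. WT heart 2 was the highest heart for the footprints of this list as well. Over 23 genes they averaged 0.70 above their 9-heart mean there, and 0.40 above in KO heart 6. Dab2 efficiency was higher by 0.91 and that of Stab1 was at -0.80 (limma adjusted p = 0.00247 and 0.0210). Of 8 growth factors and chemokines for macrophages 3 rose and 1 fell in RNA: Cxcl12 was at 0.47 (limma adjusted p = 0.00203), Tgfb1 at 0.28 (limma adjusted p = 0.0183) and Csf1, a ligand of Csf1r, at -0.57 (limma adjusted p = 0.0193).

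Of 12 genes that regulate or load MHC class II, 2 rose and 3 fell in RNA, where 24.3% of all genes were higher and 25.1% lower. Ctsl, a cathepsin widely expressed outside leukocytes, was at -0.94 (limma adjusted p = 0.000129), Nfyc, a subunit of the factor that binds the Y box, at -0.34 (limma adjusted p = 0.00117), and Ifi30, a lysosomal thiol reductase, at 0.51 (limma adjusted p = 0.00499). Rfxank, a subunit of the class II promoter complex, was lower in efficiency at -0.62 (limma adjusted p = 0.0457). Of 7 genes that signal below Fc receptors and Tyrobp, Sirpa alone changed in RNA, at -0.26 (limma adjusted p = 0.0204). Of 11 partners of C1q in complement, Serping1, the C1 inhibitor, was lower, at -0.24 (limma adjusted p = 0.0254) and properdin, Cfp, was higher, at 0.54 (limma adjusted p = 0.0460). Among 18 lysosomal genes 6 rose and 5 fell in RNA. The lysosomal membrane genes Lamp2, Lamp1 and Scarb2 were at -0.75 (limma adjusted p = 6.08e-07), at -0.57 (limma adjusted p = 6.86e-06) and at -0.57 (limma adjusted p = 1.26e-05). Efficiency was higher for Lamp2 and Scarb2 (0.74 and 0.49; limma adjusted p = 0.00103 and 0.0118). Rac1, the only analysed gene of 6 listed for the phagocyte NADPH oxidase, did not pass in RNA, at -0.06. In footprints 0 genes of these lists passed the test.

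Markers of other cells in the ventricle moved as follows in RNA, where 24.3% of all genes were higher and 25.1% lower. The counts were not tested against those shares. Of 9 fibroblast markers Col1a2 rose, and of 10 markers of smooth muscle and pericytes, 5 were higher and 1 was lower. Of 10 endothelial markers 3 rose and 5 fell, and of 10 cardiomyocyte markers 2 rose and 4 fell. Of 5 erythrocyte markers Hbb-bs was higher, at 0.53 (limma adjusted p = 0.00922), and the mast cell protease gene Mcpt4, the only analysed gene of 6 mast cell markers, was higher, at 1.10 (limma adjusted p = 0.0109). The neutrophil gene Ly6g and the dendritic cell gene Zbtb46 were at 0.67 and 0.01 in RNA and did not pass. The part of these cell types in the members' differences was not tested.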

How the data were processed

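Poly-A RNA and ribosome footprint libraries of 9 left ventricles were used. Per the labels' protocols, a TruSeq kit, which keeps no strand, served for RNA. Footprints were prepared with a small RNA kit (NEXTflex). The tools named in the submitters' processing notes are HTSeq, DESeq2 and STAR 2.7.1a, with the GRCm38 (mm10) build and no roles. The RNA and footprint tables deposited by the authors hold a normalized read signal, gene counts divided by 1 size factor per library, as the values and the file headers show. The deposited tables also hold the authors' log2 fold changes and p-values, per the file headers. The deposited efficiency fold change runs as wild type over knockout and was turned round here. Regressed on the fits made here, the authors' deposited log2 fold changes had a slope of 0.242 in footprints and 0.895 in RNA. The sources used here do not say how they were made.

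Dividing by the smallest step gave whole reads for 100% of values within a tolerance of 0.01 reads. In knockout RNA the step rests on few low values, so those totals are less certain, and count tests (edgeR 4.0.16, DESeq2 1.42.0) were run on footprint reads only. There edgeR called 2 genes and DESeq2 6.

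The main test was limma 3.58.1 (R 4.3.3, trend of variance with level) on log2(value + 1), for genes with a mean of at least 10, fitted over all genes, with Benjamini-Hochberg adjusted p below 0.05. Fold changes on this scale understate the change of low genes. Efficiency was the genotype by assay interaction over 18 libraries. Pairing comes from the labels, which give both libraries of a heart its number. Deviations from the genotype mean over 6082 genes correlated at 0.237 to 0.575 within a heart (median 0.424), and at -0.325 to 0.364 (median -0.155) between different hearts of a genotype. Part of that contrast is built in by subtracting the mean. Members, lists and tests were chosen with earlier results of these data known. Values in every heart are given for members called in a comparison and for the highest RNA of each role. From other lists up to 3 called genes with the smallest adjusted p are named. The fits were also run on simulated counts without shared heart effects or depth differences, and no result here rests on that run. Alternatives were other filters, pseudocounts and scalings, the deposited values, each heart left out, count tests, the replicate block and per-heart ratios. No pair of libraries of a group agreed within sampling noise (chi-square per degree of freedom at least 6.05).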

Additional observations from a re-analysis of the deposited data

Results flagged for a closer look

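Groups were made of each member's RNA, footprints and efficiency in KO and in WT hearts. In 28 of 192 groups (14.6%) the highest or lowest heart lay far from the others of its group by Dixon's test. Chance marks about 1 in 20 of independent groups, but these share the same hearts, and efficiency is made from the other measures. No share over all genes is given, so the 14.6% is not read as an excess. KO heart 6 was high in RNA for Laptm5 (180.2), C1qa (1042), C1qb (832), C1qc (758), Lyz2 (1009.5) and Ctss (338), as normalized reads. The same heart was high in footprints for Cd53 (510.3) and Lcp1 (1153). WT heart 1 was low in RNA for Lyve1 (110.0).

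WT heart 2 accounted for most of the WT values. Its footprints were high for Csf1r (5584), Adgre1 (1926), Cd68 (656), Mrc1 (7465), Cd163 (2226), C1qa (4853), C1qb (3244), Tyrobp (783) and Ctsc (3817), as normalized reads. Its ratio of footprint to RNA was high for Csf1r (9.26), Mrc1 (10.4), Cd163 (6.02), C1qa (5.21), Tyrobp (8.61) and Lyz2 (11.5). These genes span receptors, resident macrophage genes, C1q chains, an adaptor and lysosomal effectors. Fibroblast markers were also high in the footprints of this library, by 0.67 on the log2 scale over 9 genes.

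WT heart 4 was high in footprints for Ighg2c (118) normalized reads and in the ratio of footprint to RNA for Igkc (12.6) and Ighg2c (0.567). KO heart 8 was high in that ratio for Ighm (1.31).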

How the results depend on the processing

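The 10 RNA calls among the members kept their direction and their side of the threshold in every alternative in which the gene was tested. Leaving out a heart gave 4 to 7 lower members in RNA, the 7 without KO heart 6. Genes called in footprints numbered 2 in the limma fit, 1 with no filter on low values, 6 with DESeq2, 6 in the deposited values and 0 to 3 when a heart was left out. DESeq2 and the deposited values each called 1 lower member in footprints, Ighg2c, a value that rests on WT heart 4. Members lower in efficiency numbered 3 in the limma fit, 1 with quantile normalization, 7 with per-heart ratios, 4 in the authors' deposited values, which add Ighg2c, and 0 to 3 when a heart was left out. With the heart as a replicate block they numbered 8, and the block ended no call of that fit. The causes of these shifts were not tested. No member reversed its call.

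WT heart 2 was the shallowest footprint library, at 6671555 reads, and what its depth limits was not tested. Immunoglobulin footprints rest on few reads in several hearts. Values are not per length, so the order of read levels between genes is not one of transcript abundance. The RNA kit keeps no strand, and B cell sources were not tested. RNA depth, as recovered, differs by genotype throughout, with less certain KO totals.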
